A study of Saccharomyces cerevisiae with 12 samples.

Results

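The RRP6 deletion by time interaction is the difference between 2 time courses in synchronized budding yeast, Saccharomyces cerevisiae: the change from 40 min to 100 min in cells that lack RRP6, minus the same change in wild-type cells. It uses 8 of the 12 libraries of the study, 2 biological replicates in each of 4 groups: wild type at 40 min, wild type at 100 min, rrp6-delta at 40 min and rrp6-delta at 100 min after synchronization. The other 4 libraries are wild type with FU (5-fluorouracil, the drug in the title of the series) at the same times; they share the estimate of the spread and serve as a comparison below. Total RNA from a hot phenol extraction was freed of rRNA and sequenced with strand-specific libraries. The strain, the mating type, the method of synchronization and any treatment that the groups share are not stated in the labels. The interaction was computed for all features with enough signal, 11485 of the 12026 in the table, of which 5725 are genes. A negative interaction means that the change over time was lower, in log2 units, in the mutant than in wild type, and a positive one that it was higher. In such bulk samples, fewer cells in a given cell cycle phase and less RNA per cell cannot be told apart.

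Rrp6 is the 3′ to 5′ exonuclease that works with the exosome in the nucleus, where it trims snoRNA and rRNA precursors and degrades cryptic transcripts. Yeast cells released from a synchronizing block pass together through G1, S, mitosis and cytokinesis, and groups of genes are transcribed in turn: the MBF and SBF targets at G1/S, the CLB2 cluster at G2/M, and the genes of cell separation and early G1 at the M/G1 boundary. Sulfur assimilation makes homocysteine, methionine and S-adenosylmethionine, the methyl donor of the cell; its genes are activated by Met4, which is brought to promoters by the E-box factor Cbf1 and by the zinc finger factors Met31 and Met32.

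The values are read densities, the reads of a feature per nucleotide, scaled so that the reads over genes sum to the same total, 14370740, in every library. The depth was 20102931 to 27498217 reads per library over all features. Replicates correlated across genes with a Pearson's r of 0.940 in wild type at 40 min and of 0.990 to 0.992 in the 3 further groups compared, and of 0.951 and 0.986 with FU at 40 and 100 min; the points are genes and not replicates. The 40 min wild-type replicates differed in the share of reads in snoRNAs, 11.7% and 20.2%, against 9.99% to 15.0% in the 6 other libraries used. Some results that move when either of these 2 libraries is left out are given with both values, but not every list median is.

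RRP6 itself (YOR001W, chromosome 15, 326832 to 329033) fits the labels in every library. Its density was 1.30 and 1.07 in wild type at 40 min, 0.951 and 0.868 in wild type at 100 min, 0.0675 and 0.0781 in rrp6 at 40 min, and 0.0507 and 0.0696 in rrp6 at 100 min. Every mutant library lay below every wild-type library, with 158 to 241 reads left against 2081 to 3528. The mutant fell by 3.81 ± 0.21 (SE, log2) at 40 min and by 3.69 ± 0.21 at 100 min (adjusted p = 9.1e-06 and 9.01e-06), and the interaction at RRP6 was 0.13 ± 0.30 (adjusted p = 0.999).

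The interaction passed the threshold in few features, with 2 libraries a group. Of the 11485 tested, 9 had an interaction with an adjusted p under 0.05 in limma, which is 0.0784% of them: 2 higher (0.0174%) and 7 lower (0.0609%). Without adjustment, 522 features (4.55%) were higher and 355 (3.09%) lower at a p under 0.05. The median interaction was 0.05 over all features and 0.01 over genes, and its median SE was 0.44. In 890 features the interaction was at least 1 in size (log2), in either direction. A feature that was not called is not shown to be unchanged. Against this, the mutant differed from wild type in 6550 features (57%, with 54.2% higher and 2.85% lower) at 40 min and in 6875 (59.9%, with 57.1% higher and 2.8% lower) at 100 min.

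The 9 features share a form. All 9 changed with time in wild type, where 272 of the 11485 features (2.37%) did, and none of the 9 had a time change called in rrp6, where 214 features (1.86%) did. In each of the 9, both libraries of wild type at 100 min lay outside the range of the other 6 libraries, which held for 3233 of all 11485 features. The time change was larger in size in wild type than in rrp6 for 9 of 9 features, and it had the opposite sign in the strains for 4 of 9. Over all features these counts were 5790 and 3608 of 11485, and over the 877 features at an unadjusted p under 0.05 they were 376 and 572. Of those 877, 123 had a time change called in wild type and 116 in rrp6. In 369 of them both libraries of wild type at 100 min lay outside the other 6. The form is read from the libraries that gave the calls, so it describes the 9 and is not separate evidence. Genes of methionine and S-adenosylmethionine make up 5 of the 9: SAM1, MET17, MUP1, MMP1 and MHT1. The others are the siderophore transporter gene ARN2, the acid phosphatase gene PHO12, IZH3 and the non-coding MUT729.

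**Figure D1:**
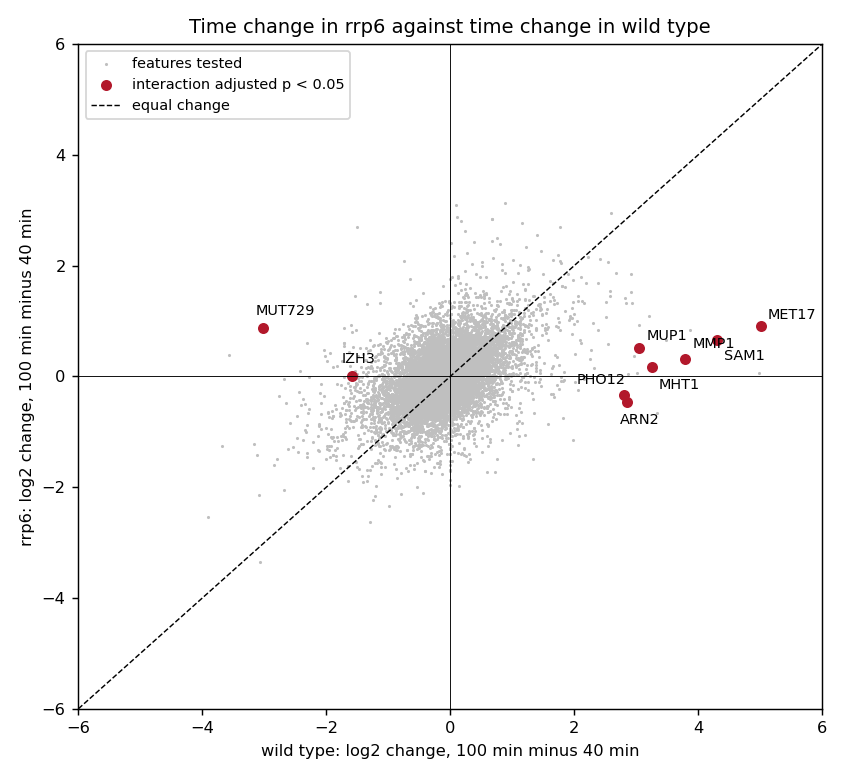
Log2 change from 40 min to 100 min in rrp6 (vertical axis) against that in wild type (horizontal axis) for all 11485 features (grey); the 9 features with an interaction adjusted p under 0.05 are red and named, and the dashed line marks equal change. The 9 lie far from 0 on the wild-type axis, from -3.02 to 5.01, and closer to 0 on the rrp6 axis, from -0.47 to 0.91.

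MET17 (YLR303W, chromosome 12, 732542 to 733876, plus strand) encodes the enzyme that joins sulfide to O-acetylhomoserine to make homocysteine. Its density was 0.0654 and 0.0464 in wild type at 40 min, then 2.32 and 2.00 at 100 min, against 0.0841 and 0.0979 in rrp6 at 40 min and 0.168 and 0.196 at 100 min. The wild-type libraries at 100 min stood far above all 6 others, and the mutant libraries at 100 min lay above those at 40 min without overlap. The gene rose by 5.01 ± 0.24 (SE, log2) in wild type (adjusted p = 3.5e-05) and was at 0.91 ± 0.24 in rrp6 (adjusted p = 0.0973). The interaction was -4.09 ± 0.35 (adjusted p = 0.00399).

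SAM1 (YLR180W, chromosome 12, 515262 to 516410, plus strand) encodes a S-adenosylmethionine synthetase. Its density was 0.534 and 0.398 in wild type at 40 min, then 9.01 and 9.58 at 100 min, while rrp6 had 0.444 and 0.549 at 40 min and 0.764 and 0.801 at 100 min. At 40 min the strains overlapped, and at 100 min they were far apart. The rise of 4.30 ± 0.21 in wild type (adjusted p = 3.5e-05) stood against 0.65 ± 0.21 in rrp6 (adjusted p = 0.15), an interaction of -3.65 ± 0.30 (adjusted p = 0.00399). SAM1 and MET17 were the only called features that passed in all 19 alternative settings run, with adjusted p-values of 0.00642 to 0.0488 when each of the 8 libraries was left out in turn.

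MUP1 (YGR055W, chromosome 7, 599417 to 601141, plus strand) encodes the high-affinity methionine permease. In wild type its density was 0.666 and 0.526 at 40 min, then 4.64 and 5.35 at 100 min, while rrp6 had 0.780 and 0.694 at 40 min, then 1.07 and 1.05 at 100 min. The wild-type rise of 3.05 ± 0.19 (adjusted p = 0.000163) compared with 0.52 ± 0.19 in rrp6 (adjusted p = 0.19), and the interaction was -2.53 ± 0.27 (adjusted p = 0.0112). MUP1 was no longer called without any 1 of the 6 libraries other than wild type at 40 min, with adjusted p-values up to 0.132 and the same sign.

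MMP1 and MHT1 are neighbours that point away from each other across 342 nt on chromosome 12. MMP1 (YLL061W, 17956 to 19707, plus strand) encodes the S-methylmethionine permease, and MHT1 (YLL062C, 16639 to 17613, minus strand) the methyltransferase that makes methionine from S-methylmethionine and homocysteine. The density of MMP1 was 0.140 and 0.0713 in wild type at 40 min, 1.45 and 1.64 at 100 min, 0.0913 and 0.134 in rrp6 at 40 min, and 0.120 and 0.163 at 100 min. That of MHT1 was lower but had the same order of groups: 0.0282 and 0.0215, then 0.374 and 0.304 in wild type, and 0.0394 and 0.0469, then 0.0392 and 0.0620 in rrp6. For both genes, the mutant libraries at 40 and 100 min overlapped.

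The interaction was -3.48 ± 0.44 for MMP1 (adjusted p = 0.0365) and -3.09 ± 0.41 for MHT1 (adjusted p = 0.0437). The wild-type rises were 3.79 ± 0.31 and 3.25 ± 0.29 (adjusted p = 0.000902 and 0.00142), against 0.31 ± 0.31 and 0.16 ± 0.29 in rrp6 (adjusted p = 0.667 and 0.832). MHT1 was called in none of the 8 fits without 1 library (adjusted p 0.0825 to 0.401), and MMP1 in 2 of 8.

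The upstream regions of these genes hold the letters that Met31 and Met32 are known to bind. For MET17, SAM1, MUP1 and MMP1, 300 bases from 400 to 101 bases before the start of the gene are read from the RefSeq genome of build R64, on the strand of the gene. The region shown for MMP1 overlaps that of MHT1 and holds the cores of both. Capitals mark the E-box CACGTG, bound by Cbf1, and the Met31/Met32 core AACTGTG, which appears as CACAGTT where it lies on the other strand. The regions are, for MET17 chr12:732142-732441, for SAM1 chr12:514862-515161, for MUP1 chr7:599017-599316 and for MMP1 chr12:17556-17855, all on the plus strand.
MET17: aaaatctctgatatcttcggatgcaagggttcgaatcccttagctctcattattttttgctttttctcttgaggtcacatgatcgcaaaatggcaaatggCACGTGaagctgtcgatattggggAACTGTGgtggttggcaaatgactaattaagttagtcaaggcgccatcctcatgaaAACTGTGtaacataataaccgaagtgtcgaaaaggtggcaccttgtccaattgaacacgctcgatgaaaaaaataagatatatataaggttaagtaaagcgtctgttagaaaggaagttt
SAM1: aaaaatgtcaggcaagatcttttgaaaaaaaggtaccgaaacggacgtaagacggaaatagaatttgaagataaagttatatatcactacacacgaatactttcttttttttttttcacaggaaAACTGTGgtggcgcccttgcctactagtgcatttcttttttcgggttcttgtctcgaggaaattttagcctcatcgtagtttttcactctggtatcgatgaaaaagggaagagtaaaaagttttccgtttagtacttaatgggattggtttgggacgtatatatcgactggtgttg
MUP1: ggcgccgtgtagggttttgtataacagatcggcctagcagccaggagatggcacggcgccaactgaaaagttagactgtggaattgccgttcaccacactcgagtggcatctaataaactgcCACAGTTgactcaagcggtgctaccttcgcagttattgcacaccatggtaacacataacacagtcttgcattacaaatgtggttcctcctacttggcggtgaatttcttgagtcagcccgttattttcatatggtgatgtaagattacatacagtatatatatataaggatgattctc
MMP1: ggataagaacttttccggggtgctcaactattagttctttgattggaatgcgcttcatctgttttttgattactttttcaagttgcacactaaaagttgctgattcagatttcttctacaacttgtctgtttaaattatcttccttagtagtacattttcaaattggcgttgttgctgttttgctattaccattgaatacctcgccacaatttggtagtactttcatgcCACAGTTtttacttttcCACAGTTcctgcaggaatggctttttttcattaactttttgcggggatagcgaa

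MET17 holds 1 E-box, whose first base is 300 bases before the gene, and 2 cores, at 276 and 220 bases. SAM1 holds 1 core, at 276 bases, and MUP1 holds 2 in the 500 bases upstream, at 463 and 278 bases. The 2 cores between MMP1 and MHT1 serve both counts: they begin 171 and 154 bases before MMP1 and 195 and 178 bases before MHT1. In the 500 bases upstream, on either strand, AACTGTG was found for 354 of 6000 genes (5.90%), for 6 of the 8 called genes (the 5 above and IZH3) and for 16 of 31 sulfur and methionine genes (51.6%). CACGTG was found for 374 of 6000 genes (6.23%), for 2 of the 8 called genes (MET17 and PHO12) and for 22 of the 31 (71.0%). In the window from 250 bases before to 50 after the start, which was the one planned, the E-box was found for 175 of 6001 genes (2.92%), for 0 of the 8 and for 9 of the 31 (29.0%). There the core was found for 204 of 6001 genes (3.40%), for 5 of the 8 and for 9 of the 31. The upstream cores given above for SAM1 and MUP1 lie outside that window. The 5 therefore are not the 5 methionine genes: they include IZH3, and MMP1 and MHT1 count the same 2 sites. The core was chosen as a motif after the called genes were known. A match is a description of the letters and not of a bound site.

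**Figure D2:**
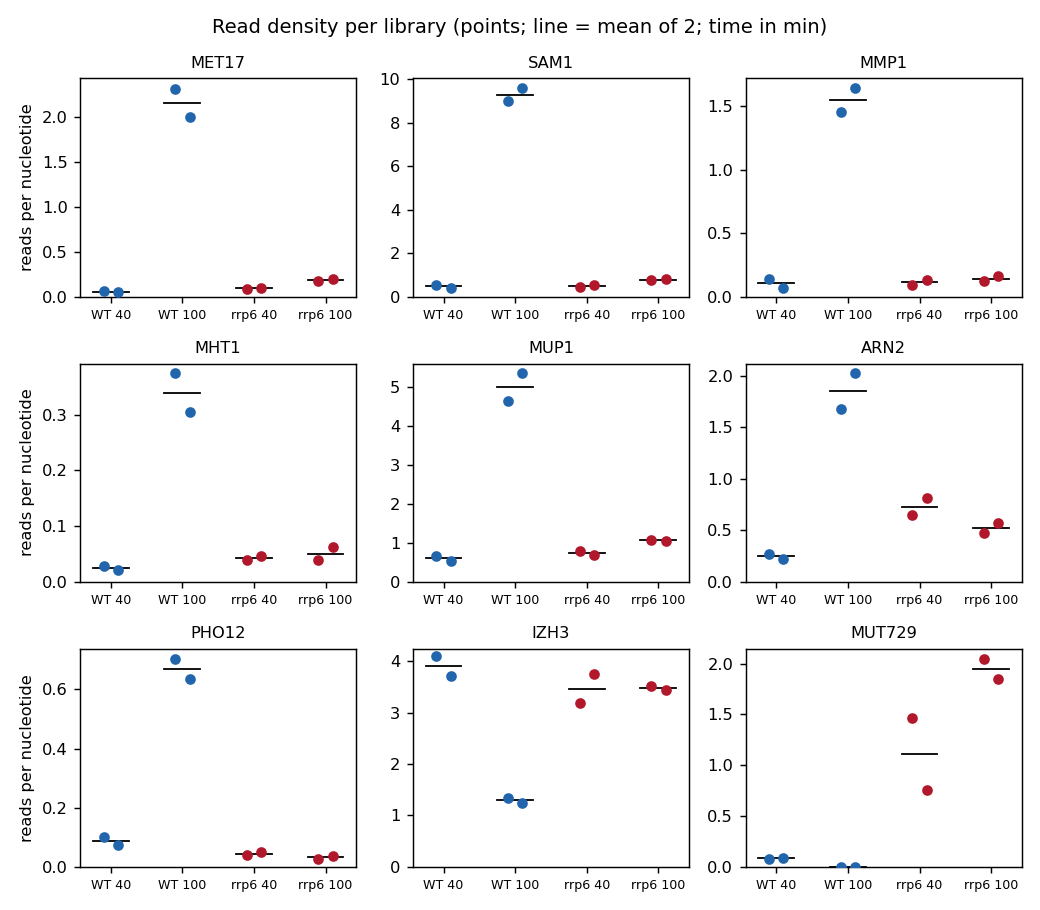
Read density (reads per nucleotide, scaled to the same total over genes) of the 9 called features in the 8 libraries; each point is 1 library, the line is the mean of 2, wild type is blue and rrp6 red. In all 9 panels the wild-type libraries at 100 min stand outside the other 6.

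Across the pathway, 31 sulfur and methionine genes were tested, and 4 had a called interaction, all lower: SAM1, MET17, MUP1 and MMP1. Without adjustment, 13 were lower and 1 higher, where 3.09% and 4.55% of all features were. Of the 31, 8 lay above 0. The median interaction of the list was -0.82, against 0.05 over all features. It was -1.05 without wild type at 40 min, replicate 1, and -0.44 without replicate 2, and it was -0.28 with a pseudocount 10 times larger. The list was drawn up with earlier results of these data known and is not independent evidence of its direction.

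In wild type, 14 of the 31 rose between 40 and 100 min and none fell, where 1.31% of all features rose and 1.06% fell, and the median change was 1.12. None of the 14 is a gene of sulfate uptake or activation, though the activation gene MET14 just missed at 1.15 (adjusted p = 0.0524). HOM2, HOM3 and HOM6 make homoserine, MET2 acetylates it, MET10 is a subunit of sulfite reductase, MET17 makes homocysteine and MET6 turns it into methionine. SAM1 and SAM2 make S-adenosylmethionine, MUP1, MMP1 and SAM3 import methionine and its relatives, and CYS3 and STR3 connect homocysteine and cysteine. In rrp6, 4 of the 31 rose (HOM2, HOM3, HOM6 and MET22) and none fell, where 1.08% of all features rose and 0.784% fell, and the median was 0.57. Both sets hold the HOM genes, which make the carbon skeleton shared with threonine.

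SAM2 (YDR502C, chromosome 4, 1453310 to 1454464), the paralog of SAM1, had the lowest interaction of all features tested, -4.93 ± 0.77, but missed the threshold (adjusted p = 0.102). Its density was 0.223 and 0.0563 in wild type at 40 min, 4.95 and 3.22 at 100 min, 0.119 and 0.168 in rrp6 at 40 min, and 0.129 and 0.169 at 100 min. The difference of rrp6 from wild type at 100 min was -4.65 for SAM2, against -3.48 for MET17, and the wild-type replicates of SAM2 at 40 min were wide. SAM2 shares 1.81% of its 50-base windows with SAM1, so few reads could be split between them. The methionine synthase gene MET6 (YER091C) was at -3.03 ± 0.53 (adjusted p = 0.111), with densities of 0.277 and 0.104, then 3.02 and 2.35 in wild type, and 0.206 and 0.1999, then 0.350 and 0.399 in rrp6. CYS3, cystathionine gamma-lyase, was at -1.96 ± 0.34 (adjusted p = 0.108), MET2 at -2.11 ± 0.39 (0.122) and the S-adenosylmethionine permease gene SAM3 at -2.11 ± 0.43 (0.171). SAM2, MET6, MET2 and SAM3 were called with a pseudocount 10 times larger, which gives low values less weight, and 8 of the 31 were called there.

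Genes of sulfate uptake and reduction were on the list too, and none was called. The ATP sulfurylase gene MET3 was at -0.17, the PAPS reductase gene MET16 at 0.27 and the sulfate permease genes SUL1 and SUL2 at 0.10 and -0.74. MET14, the kinase between them, was at -0.82. The sulfite reductase genes MET5 and MET10 were at -0.84 and -0.91. Among the regulators, MET4 was at 0.29, MET31 at -0.06, MET30 at -0.21 and MET32 at -1.09. The regulator MET28 was lower, at -1.91 ± 0.53 (adjusted p = 0.395). None of these genes was called. HOM2, aspartate semialdehyde dehydrogenase, had the highest value of the list, 1.11 ± 0.35 (adjusted p = 0.453). It rose in both strains, by 1.22 in wild type and 2.34 in rrp6 (adjusted p = 0.0381 and 0.00515).

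**Figure D3:**
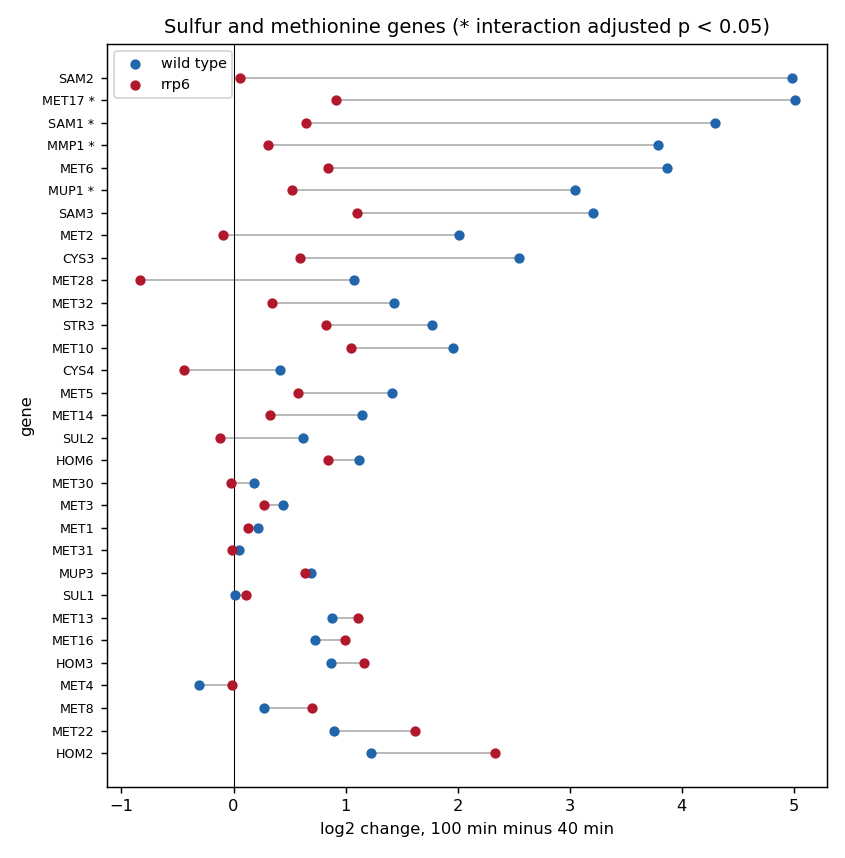
Log2 change from 40 min to 100 min of the 31 sulfur and methionine genes in wild type (blue) and in rrp6 (red), ordered by interaction; an asterisk marks an interaction adjusted p under 0.05. The wild-type points reach 5.01 at MET17 and 4.98 at SAM2, while the rrp6 points stay between -0.84 (MET28) and 2.34 (HOM2).

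ARN2 (YHL047C, chromosome 8, 8351 to 10213, minus strand) encodes a transporter of iron bound to siderophores of the triacetylfusarinine type. Its density was 0.271 and 0.220 in wild type at 40 min, then 1.68 and 2.03 at 100 min, against 0.647 and 0.809 in rrp6 at 40 min and 0.473 and 0.569 at 100 min. The mutant was above wild type at 40 min and below it at 100 min, with no overlap at either time. The difference of rrp6 from wild type was 1.52 at 40 min (adjusted p = 0.00031) and -1.81 at 100 min (adjusted p = 0.000115), and the interaction was -3.33 ± 0.29 (adjusted p = 0.00399). Of the 19 alternatives, only the fit without wild type at 100 min, replicate 2, lost the call (adjusted p = 0.0511).

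The other 30 of the 31 iron genes tested were not called, and the median of the list was 0.04, with 16 members above 0. Without adjustment 4 were higher and 5 lower, where 4.55% and 3.09% of all features were. FIT2, a cell wall mannoprotein that retains siderophores, was at -2.44 ± 0.44 (adjusted p = 0.121). Of the high-affinity iron uptake pair, the permease gene FTR1 was at 1.43 ± 0.24 (adjusted p = 0.108) and the ferroxidase gene FET3 at 2.25 ± 0.44 (0.151). FET3 was 9.86 and 10.1, then 15.0 and 22.5 reads per nucleotide in wild type, and 1.20 and 0.719, then 9.68 and 6.99 in rrp6. It rose by 3.13 in rrp6 (adjusted p = 0.00515) and was at 0.88 in wild type (adjusted p = 0.186). In each strain 7 of the 31 rose with time, where 1.31% of all features rose in wild type and 1.08% in rrp6.

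PHO12 (YHR215W, chromosome 8, 552099 to 553502, plus strand) encodes a secreted acid phosphatase. Its density was 0.101 and 0.0726 in wild type at 40 min, 0.704 and 0.637 at 100 min, 0.0385 and 0.0503 in rrp6 at 40 min, and 0.0272 and 0.0381 at 100 min. It rose by 2.80 ± 0.30 in wild type (adjusted p = 0.0028) and was at -0.34 ± 0.30 in rrp6 (adjusted p = 0.617), with an interaction of -3.14 ± 0.42 (adjusted p = 0.0473). PHO12 and PHO11 are near copies, and 87.2% of the 50-base windows of PHO12 occur elsewhere in the genome, so the split of reads between them is uncertain. PHO11 was at -1.86 ± 0.58 (adjusted p = 0.439) and PHO5, the main acid phosphatase gene, at -1.91 ± 0.42 (adjusted p = 0.215). No fit without 1 library called PHO12 (adjusted p 0.0727 to 0.415), and it was called in 7 of the 19 settings. Of the 18 phosphate genes it is the only one called, and the list median was -0.35. IMD2, an IMP dehydrogenase gene that begins 893 nt after PHO12 on the same strand, was at -2.44 ± 0.41 (adjusted p = 0.108).

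IZH3 (YLR023C, chromosome 12, 185498 to 187129, minus strand) encodes a membrane protein of the PAQR family linked to zinc homeostasis, and it was the only gene called higher. Its density was 4.10 and 3.70 in wild type at 40 min, then 1.34 and 1.25 at 100 min, against 3.19 and 3.74 in rrp6 at 40 min and 3.52 and 3.45 at 100 min. It fell in wild type by 1.58 ± 0.14 on the log2 scale (adjusted p = 0.00147) and was at 0.01 ± 0.14 in rrp6 (adjusted p = 0.978). The 4 mutant libraries lay among the wild-type libraries at 40 min or below them, and above those at 100 min. The interaction of 1.59 ± 0.20 (adjusted p = 0.0365) was smaller than the other 8 and lost the call in each of the 8 fits without 1 library (adjusted p 0.0632 to 0.266); it was called in 7 of the 19 settings.

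MUT729, 1 of 529 meiotic unannotated transcripts tested, was the only non-coding feature called. It lies on chromosome 8, 237993 to 238113, plus strand, 299 nt past the end of PCL5 on the same strand. Its density was 0.0802 and 0.0909 in wild type at 40 min, 0 in both wild-type libraries at 100 min, 1.46 and 0.755 in rrp6 at 40 min, and 2.04 and 1.85 at 100 min. The wild-type values at 40 min rest on 12 and 11 reads, those of rrp6 on 128 to 350. Against a floor of 3 reads in each wild-type library, rrp6 at 100 min was at least 83.1-fold higher, and wild type at 40 min was at least 3.65-fold above its own later level. The fitted interaction of 3.90 ± 0.41 (adjusted p = 0.0112) depends on the pseudocount because of the zeros, ranging from 1.59 to 7.06 over the settings. The call was lost in 7 of the 19 settings: with a pseudocount 10 times larger, with only the 8 libraries, in limma-voom, and without any 1 of the 4 libraries at 100 min (adjusted p up to 0.107).

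PCL5, the gene upstream, encodes a cyclin of the kinase Pho85 that promotes turnover of the activator Gcn4. It was 4.54 and 5.08, then 2.46 and 2.32 reads per nucleotide in wild type, and 7.72 and 5.41, then 10.2 and 9.82 in rrp6. It fell in wild type by 1.00 on the log2 scale (adjusted p = 0.0261) and was at 0.63 in rrp6 (adjusted p = 0.118). Its interaction of 1.64 ± 0.26 missed the threshold (adjusted p = 0.102). XUT0441, which lies 272 nt from MUT729 on the same strand, was at 1.54 ± 0.46 (adjusted p = 0.426). On the other strand, a tRNA gene, tF(GAA)H1, lies 53 nt away and was at -0.57 ± 1.18 (adjusted p = 0.999).

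Some features came next below the threshold. The lowest adjusted p among those missed, 0.0998, belonged to SUT1290 (-2.57 ± 0.39) and AMN1 (-2.30 ± 0.35). SUT1290 rests on only 1 to 20 reads in each of the 8 libraries, so counting error limits its value. YLR179C, which points away from SAM1 across 548 nt, was at -1.43 ± 0.22 (adjusted p = 0.102). It rose in both strains, by 2.51 in wild type and by 1.08 in rrp6 (adjusted p = 0.000163 and 0.0157). Among higher values, TPO2, a polyamine exporter gene, was at 2.38 ± 0.39 and AAC1, a mitochondrial ADP/ATP carrier gene, at 1.79 ± 0.29 (adjusted p = 0.108 each). TPO2 had the form of IZH3: 2.78 and 2.95, then 0.776 and 0.629 in wild type, and 2.66 and 3.56, then 3.50 and 4.47 in rrp6.

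The FU libraries give the time course in a further condition. The FU by time interaction uses the same 4 wild-type libraries, so it is not independent of the values above. It was -2.48 for SAM1 (adjusted p = 0.0227), -2.25 for MET17 (0.074), -1.07 for MUP1 (0.318), -2.37 for MMP1 (0.146) and -1.79 for ARN2 (0.0909). For PHO12 it was -2.27 (0.146), for MHT1 -1.81 (0.24), for MUT729 2.33 (0.12) and for IZH3 0.93 (0.236). Of features that missed the threshold in rrp6, AMN1 was at -3.92 (0.0137), PCL9 at -4.44 (0.0192), BUD9 at -2.56 (0.0293) and SUT1290 at -2.94 (0.0324). TPO2 was at 1.31 (0.471) and PCL5 at 0.30 (0.945). The time change in rrp6 minus that with FU uses no wild-type library without FU. It was not called for any of the 9 features, with adjusted p-values of 0.277 to 0.856, and its values ran from -1.84 at MET17 to 1.57 at MUT729. These misses do not show that the courses with FU and in rrp6 are alike. Of the 11485 features, 2 (0.0174%) were called in that contrast, with 701 at an unadjusted p under 0.05. They are HUG1 (-3.91 ± 0.39, adjusted p = 0.0366), an inhibitor of ribonucleotide reductase induced by DNA damage, and RNR2 (-3.37 ± 0.38, adjusted p = 0.0457), a subunit of that enzyme. Their interactions with time in rrp6 against wild type were -0.56 and -0.85 (adjusted p = 0.901 and 0.653).

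Genes of the M/G1 cluster, which act in cell separation and the next G1, had the lowest median of all lists, -1.17, but none of its 30 members was called. The count at an unadjusted p under 0.05 was 20 lower and 0 higher, where 3.09% and 4.55% of all features were, and limma-voom called none. In wild type 11 of the 30 rose between 40 and 100 min, with a median change of 1.08, and in rrp6 none rose or fell, with a median of -0.05. Over all features 1.31% rose in wild type, and 1.08% rose and 0.784% fell in rrp6. Leaving out each library moved the list median between -1.34 and -0.97. Against wild type, 15 of the 30 were higher in rrp6 at 40 min and 0 lower, with a median difference of 0.73. At 100 min 3 were higher and 7 lower, with a median of -0.50. Over all features 54.2% were higher and 2.85% lower at 40 min, and 57.1% and 2.8% at 100 min.

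AMN1, an antagonist of mitotic exit that also regulates daughter cell separation, was 0.334 and 0.453, then 1.80 and 1.55 reads per nucleotide in wild type, and 0.871 and 1.09, then 0.804 and 0.849 in rrp6. The mutant values at both times lay between the wild-type values at 40 and at 100 min. The same held for PCL9, a Pho85 cyclin of late M and early G1: 0.0849 and 0.121, then 0.707 and 0.810 in wild type, and 0.497 and 0.547, then 0.598 and 0.430 in rrp6. Its interaction was -2.80 ± 0.48 (adjusted p = 0.108). NIS1, a bud neck protein gene, was at -1.98 ± 0.34 and BUD9, a bud site marker gene, at -1.92 ± 0.33 (adjusted p = 0.108 each). The FU by time interaction was lower still for AMN1 (-3.92), PCL9 (-4.44) and BUD9 (-2.56). Negative interactions of AMN1, PCL9 and BUD9 were thus not particular to rrp6, though both contrasts use the same wild-type libraries. In rrp6 these genes were above wild type at 40 min, by 1.30, 2.23 and 1.49 (adjusted p = 0.00184, 0.000566 and 0.000696). At 100 min AMN1 was lower in rrp6 (-1.01, adjusted p = 0.00656). PCL9 and BUD9 were then at -0.57 and -0.44 and were not called (adjusted p = 0.177 and 0.139).

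Further members include DSE4. This glucanase gene of daughter cells was 0.156 and 0.319, then 1.68 and 2.13 in wild type, and 0.144 and 0.281, then 0.211 and 0.212 in rrp6, with an interaction of -2.95 ± 0.69 (adjusted p = 0.234). EGT2, needed for timely cell separation, was at -2.81 ± 0.64 (adjusted p = 0.228) and the cell wall gene PIR1 at -2.82 ± 0.69 (adjusted p = 0.264). The CDK inhibitor gene SIC1 was at -1.47 ± 0.43 (adjusted p = 0.426).

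**Figure D4:**
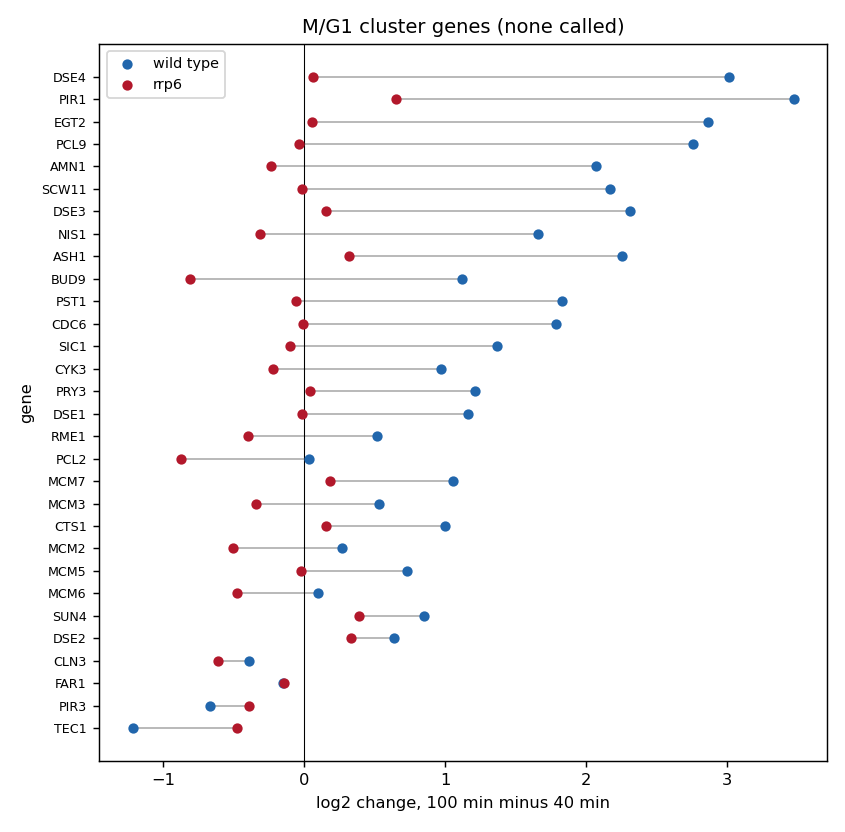
Log2 change from 40 min to 100 min of the 30 M/G1 cluster genes in wild type (blue) and in rrp6 (red), ordered by interaction; no interaction passed the threshold. The wild-type points reach 3.47 at PIR1, while the rrp6 points lie between -0.87 (PCL2) and 0.65 (PIR1).

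Genes of the G2/M cluster act in mitosis. In wild type 9 of 24 members rose, with a median change of 1.13, and in rrp6 5 rose, with a median of 1.12. Over all features 1.31% rose in wild type and 1.08% in rrp6. The median interaction was -0.07 and no member was called (1 lower and 0 higher without adjustment, none in limma-voom). The mitotic cyclin gene CLB2 rose by 2.38 in wild type and by 1.68 in rrp6 (adjusted p = 0.00371 and 0.0216), with an interaction of -0.69 ± 0.39 (adjusted p = 0.789). CLB1 was at 0.44 ± 0.54 (adjusted p = 0.998).

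Of the 41 G1/S regulon genes, which act in DNA replication and budding, 3 fell in wild type and 13 in rrp6, and 1 rose in wild type. Over all features 1.06% fell in wild type and 0.784% in rrp6, and 1.31% rose in wild type. The median time change was -0.69 in wild type and -1.19 in rrp6, and the median interaction was -0.69. No member was called, and limma-voom called none. Without adjustment 13 were lower and 2 higher, where 3.09% and 4.55% of all features were. The lowest unadjusted p after BUD9, which is on this list too, belonged to POL30, the sliding clamp of DNA polymerases, at -1.34 ± 0.32. POL30 fell in rrp6 by 2.33 on the log2 scale (adjusted p = 0.00515). RNR1, the large subunit of ribonucleotide reductase, fell in rrp6 by 2.10 (adjusted p = 0.0264) and was at -0.44 in wild type (adjusted p = 0.61); its interaction was -1.66 ± 0.52 (adjusted p = 0.436). The G1 cyclin genes CLN1, CLN2 and CLN3 were at 0.71 ± 0.55, -0.54 ± 0.56 and -0.22 ± 0.74, and the S phase cyclin genes CLB5 and CLB6 at -0.37 ± 0.38 and -0.74 ± 0.62 (adjusted p 0.926 to 0.999). The MCB element ACGCGT was in 16 of 41 promoters of this list (39.0%) and in 184 of 6001 (3.07%), on either strand, each taken from 250 bases before to 50 bases after the start. The 10 histone genes had a median interaction of 0.64, with none called, none at an unadjusted p under 0.05 and none in limma-voom. HTB1 fell in wild type by 2.13 on the log2 scale (adjusted p = 0.0135) and was at -1.08 in rrp6 (adjusted p = 0.133).

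Glycolysis and fermentation genes were all 17 below 0, with a median of -0.88; none was called, 8 were lower and 0 higher without adjustment, and limma-voom called none. In wild type 12 of the 17 rose with time, with a median change of 1.97, and in rrp6 3 rose, with a median of 0.77. Over all features 1.31% rose in wild type and 1.08% in rrp6. Without adjustment 3.09% of all features had a lower interaction and 4.55% a higher interaction. Without wild type at 40 min, replicate 1, the median interaction was -1.28, and without replicate 2 it was -0.67. The phosphoglycerate kinase gene PGK1 was 10.2 and 4.10, then 57.0 and 50.1 reads per nucleotide in wild type, and 0.552 and 0.955, then 1.11 and 1.77 in rrp6. Its interaction was -2.11 ± 0.58 (adjusted p = 0.394), and the mutant lay far below wild type at both times. ADH1, the main alcohol dehydrogenase gene of fermentation, was at -1.60 ± 0.45 (adjusted p = 0.405), and TPI1, triose phosphate isomerase, at -1.19 ± 0.34 (adjusted p = 0.401). CDC19, the main pyruvate kinase gene, rose in both strains, by 2.54 in wild type and 2.07 in rrp6 (adjusted p = 0.00356 and 0.0122). Genes with close copies, such as the TDH and ENO genes, may share reads.

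Amino acid synthesis genes lay on the other side. Of 40 tested, 37 were above 0, with a median of 0.57, and 12 were higher and 0 lower without adjustment; none was called, also in limma-voom. In rrp6 12 rose with time and in wild type 4 rose and 2 fell. Over all features 1.08% rose in rrp6, and 1.31% rose and 1.06% fell in wild type. Without adjustment 4.55% of all features had a higher interaction and 3.09% a lower interaction. ARG5,6, which encodes 2 enzymes of ornithine synthesis, was 0.219 and 0.235, then 0.217 and 0.244 in wild type, and 0.591 and 0.389, then 1.79 and 1.58 in rrp6. The wild-type values did not separate by time, and the mutant values at 100 min were above all others. Its interaction was 1.77 ± 0.31 (adjusted p = 0.108), and its rise in rrp6 was 1.79 (adjusted p = 0.00821). ARG1, argininosuccinate synthetase, was at 2.83 ± 0.53 (adjusted p = 0.122), with 0.404 and 0.469, then 0.277 and 0.236 in wild type, and 0.518 and 0.218, then 1.60 and 1.36 in rrp6.

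Of the 137 cytosolic ribosomal protein genes, 132 were above 0, with a median of 0.80; 77 were higher and 1 lower without adjustment, and limma and limma-voom called none. Over all features 4.55% were higher and 3.09% lower without adjustment. The median difference of rrp6 from wild type was -1.02 at 40 min and -0.19 at 100 min, with 113 and 13 genes lower. Over all features 2.85% were lower in rrp6 at 40 min and 2.8% at 100 min. The median log2 density was 4.81 and 5.36 in the wild-type libraries at 40 min. The list median was 1.07 without replicate 1 of that group and 0.55 without replicate 2, so the size moves with the pair of libraries whose snoRNA shares differ; the part of this in the result was not tested. RPS26B was at 1.16 ± 0.26 and RPS21B at 1.56 ± 0.35 (adjusted p = 0.215 each), and the highest member was at 2.06. Ribosomal protein genes mostly exist as near-identical pairs, and the split of reads within a pair is uncertain. Ribosome biogenesis genes, 100 in number, had a median of -0.17, with 18 above 0.

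**Figure D5:**
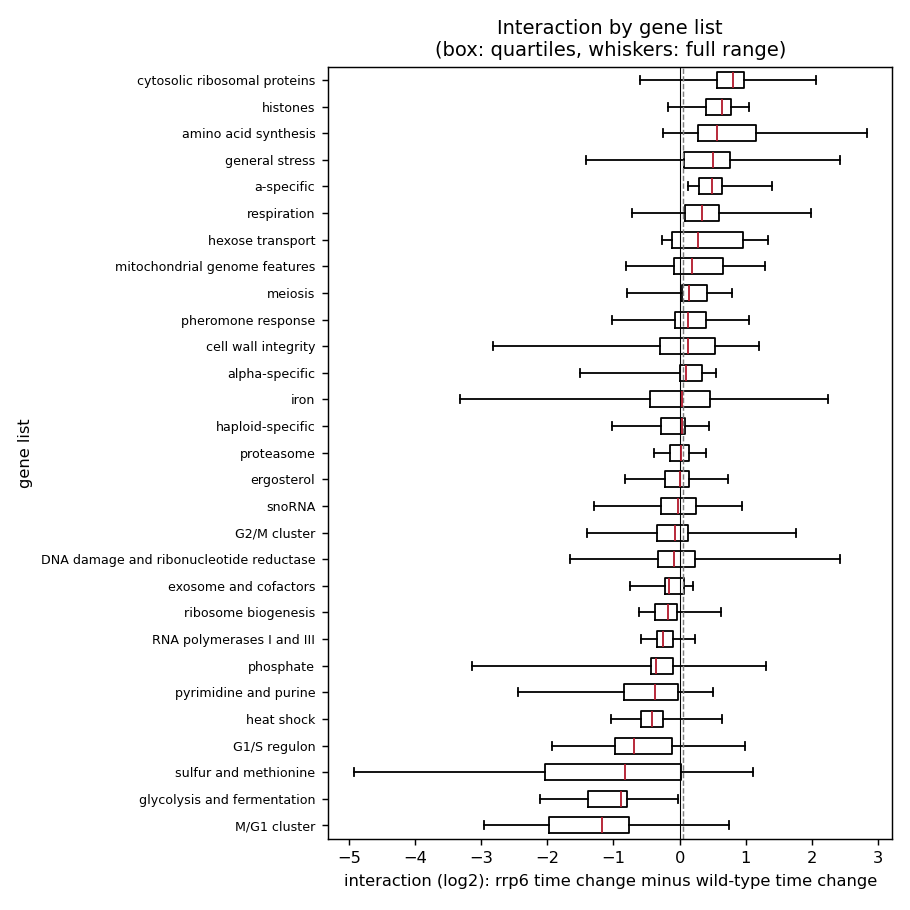
Interaction (log2, time change in rrp6 minus that in wild type) of the members of each gene list; boxes give the quartiles, red lines the medians and whiskers the full range, the solid line is 0 and the dashed line the median of all features, 0.05. The M/G1, glycolysis, and sulfur and methionine lists have the lowest medians (-1.17, -0.88 and -0.82), and cytosolic ribosomal proteins the highest (0.80).

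The cryptic and unstable transcripts, the RNAs that Rrp6 is best known to degrade, were higher in the mutant at both times. Of 923 CUTs tested, 889 were higher in rrp6 than in wild type at 40 min and 883 at 100 min, with median differences of 2.93 and 3.07. Over all features 54.2% were higher in rrp6 at 40 min and 57.1% at 100 min. Their median interaction was 0.06, and none was called, with 30 higher and 17 lower before adjustment and none in limma-voom. The median moved to 0.37 without wild type at 40 min, replicate 1, and to -0.24 without replicate 2. The medians of the 830 SUTs and 1773 XUTs were 0.18 and 0.13, again with no call in limma or limma-voom. Without adjustment, 51 SUTs and 82 XUTs were higher and 13 and 35 lower; over all features 4.55% were higher and 3.09% lower, and these counts show nothing particular to the classes. The 77 snoRNAs had a median of -0.02, with 1 lower without adjustment and no call in either test. That median was 0.62 without wild type at 40 min, replicate 1, and -0.55 without replicate 2, so its sign rests on the library left out.

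Some single non-coding features had a time change called in rrp6 and not in wild type, but missed the interaction threshold. SUT355 (chromosome 15, 96658 to 97058) was 0.426 and 0.603, then 0.530 and 0.568 in wild type, and 0.927 and 0.513, then 5.86 and 4.56 in rrp6. Both mutant libraries at 100 min were far above the other 6. It rose in rrp6 by 2.88 (adjusted p = 0.00762) and was at 0.11 in wild type (adjusted p = 0.915), with an interaction of 2.77 ± 0.49 (adjusted p = 0.112). CUT042 (chromosome 3, 105794 to 106258) rose in rrp6 by 2.22 (adjusted p = 0.0115), with an interaction of 1.96 ± 0.42 (adjusted p = 0.205). CUT461 (chromosome 3, 29909 to 30405) fell in rrp6 by 2.00 on the log2 scale (adjusted p = 0.00545), from densities of 0.216 and 0.177 to 0.0484 and 0.0325. It had no reads in wild type at 100 min, and its interaction was -1.46 ± 0.32 (adjusted p = 0.215). CUT042 and CUT461 were among the 43 features called with a pseudocount 10 times larger.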

How the data were processed

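The table the authors deposited holds, for every library, a signal that is a read density: the reads on a feature per nucleotide, times a factor of the library. Undoing length and factor gave whole reads for 100% of values (tolerance 0.001). Per the submitters' processing notes TopHat was used; its version is not given in the sources used here, nor is the genome build. Start and end equal those of R64 for 5757 of 5789 genes matched by locus tag. Per the labels' protocols, libraries were strand-specific and replicates biological.

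The log2 scale was log2(density + 0.0120173), where this pseudocount is the 10th percentile of values above 0, so fold changes of low features are understated. Features at or above it in at least 2 libraries were kept; 541 were not. One mean per group was fitted over all 12 libraries in R 4.3.3 (limma 3.58.1). The variance prior had a trend and added a median of 3.14 to 6 residual degrees of freedom. P-values of the two-sided moderated tests got a Benjamini-Hochberg adjustment over all kept features in each comparison, and an adjusted p under 0.05 is called. The deposited unit is a density and not a count, so no count model was the test; limma-voom on the recovered reads was an alternative. On simulated data for 11485 features, 20%, 96%, 100% and 100% of 50 features with interactions of 1, 2, 3 and 4 (log2) were called, with 7 false calls in all. The simulation gave every feature the same dispersion and placed the interactions only in features above a density floor. The shares called were therefore not measured for features with few reads or a wider spread. In the data SAM2, at -4.93 ± 0.77, was not called. Neither were MET6 at -3.03 ± 0.53, ARG1 at 2.83 ± 0.53 and PCL9 at -2.80 ± 0.48. The simulated shares thus do not give the share of true interactions called in these data. Features with few reads, such as MUT729, are limited by counting error.

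The features to be named by rule were RRP6, all called features, genes with the smallest unadjusted p up to 5 in each direction, 2 members of each list without a call (3 called members otherwise), and the cyclins and SIC1. Not every member chosen by this rule is printed. Other members named here, non-coding features, and HUG1 and RNR2 were chosen after their values were seen. The comparison, lists and rule were chosen with earlier results of these data known. Alternatives are given at the end. Figures were drawn with matplotlib 3.10.9 and tables read with pandas 2.3.3 in Python 3.11.15; promoters were read from the R64 genome of RefSeq. The planned search for 1 further promoter motif is not reported here.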

Additional observations from a re-analysis of the deposited data

Results flagged for a closer look

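The time course differed between rrp6 and wild type, by the interaction test in limma with Benjamini-Hochberg adjustment over 11485 features, for 9 features, and no other result stood out by the rules used. Of the methionine genes, MET17 had an interaction of -4.09, SAM1 of -3.65, MMP1 of -3.48, MHT1 of -3.09 and MUP1 of -2.53 (adjusted p 0.00399 to 0.0437). ARN2 was at -3.33 and PHO12 at -3.14; the value of PHO12 is uncertain because PHO11 is a near copy. IZH3 was at 1.59 and MUT729 at 3.90, where MUT729 had no reads in wild type at 100 min and its fitted value depends on the pseudocount. In each, the change over time was called in wild type and not in rrp6.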

How the results depend on the processing

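The 9 called features kept their sign in all 19 alternatives, but the number called moved. Against 9 called (2 higher, 7 lower), a pseudocount 10 times larger gave 43 (18 and 25), only the 8 wild-type and rrp6 libraries 4 (0 and 4), and the replicate block with median of ratios scaling 16 (4 and 12). A pseudocount 0.1 times as large gave 6 (4 lower), and the replicate block 6 (4 lower). Median of ratios scaling, the prior without a trend and limma-voom left 1 called higher. Leaving out each library gave 2 to 8 called, 0 to 2 higher and 2 to 7 lower; the fewest, 2, came without wild type at 100 min, replicate 2. In such a fit the lone library is assumed to vary like the other groups, and without wild type at 40 min, replicates 1 and 2, the median gene moved to -0.16 and 0.17. The cause of these shifts was not tested. The block lost the calls of MMP1, MHT1, PHO12 and IZH3 (adjusted p 0.0506 to 0.0526). Replicate numbers are not stated to mark a shared batch: deviations correlated over 0.1 in 4 of 6 pairs of the groups compared, from -0.09 to 0.42, but in 6 of 6 pairs of wild-type and FU groups, up to 0.78. Of the single features, 59 settings lost a call and 15 gained 1, and 1539 changed neither sign nor call. TMM scaling, edgeR and DESeq2 were planned and not run, since the deposited unit is not a count.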

Other observations

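Other lists had small interactions and no called member in limma or limma-voom. Respiration genes had a median of 0.34, with 39 of 47 above 0, and 7 were higher and 0 lower before adjustment; COX7 and COX9, subunits of cytochrome c oxidase, were at 0.86 ± 0.25 and 0.95 ± 0.29. Pyrimidine and purine genes had a median of -0.37, with 9 of 27 lower and 0 higher without adjustment; URA6, a nucleoside monophosphate kinase gene, was at -0.85 ± 0.19. General stress genes had a median of 0.51, with 35 of 44 above 0, and heat shock genes of -0.42, with 4 of 22 above 0. The median log2 density in wild type at 40 min, replicates 1 and 2, was -0.34 and -2.25 for general stress genes. It was 0.94 and -0.52 for heat shock genes, and 1.51 and -0.62 for hexose transport genes. The part of these gaps in the median interactions was not tested. All 7 a-specific genes were above 0, with a median of 0.49, and none was at an unadjusted p under 0.05. Of the 5 alpha-specific genes 4 were above 0, and MF(ALPHA)1 was at -1.51 ± 0.39 (adjusted p = 0.331). Genes of the exosome and its cofactors had a median of -0.17 and of RNA polymerases I and III of -0.26, with 0 of 25 and 0 of 27 at an unadjusted p under 0.05. Medians were also computed for the proteasome (0.02), ergosterol (-0.00), pheromone response (0.13), haploid-specific (0.03), alpha-specific (0.10), meiosis (0.14), cell wall integrity (0.13), hexose transport (0.28), DNA damage (-0.09) and mitochondrial genome (0.19) lists. The dubious open reading frame YGL024W, with at most 0.0087 reads per nucleotide in wild type, was 0.0995 and 0.0892 in rrp6 at 40 min and 0.682 and 0.613 at 100 min, with an interaction of 2.40 ± 0.42 (adjusted p = 0.108).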
